A study of Mus musculus with 16 samples.

Results

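The comparison described here sets the sorted fractions (gates) of mouse olfactory mucosa against each other in animals that received bourgeonal, a floral-smelling aromatic aldehyde. Its members are the 8 odor libraries of the 16 in the series, 4 titled GFP- and 4 titled GFP+, and the ratio of the fractions was taken within each of 4 pools for all 19505 named genes. Libraries were paired by their replicate number, which stands for 1 pool of 3 mice. The 24 C57BL/6 mice of the series, of both sexes and 7 to 12 weeks old, were housed alone for 40 hours in chambers with clean air flowing at 3.1 L/min, and from hour 26 either bourgeonal or filtered air was given for 10 seconds every 20 minutes. All animals are given as S100a5-tauGFP reporter mice, in which GFP is meant to mark neurons that express S100a5, and the 8 filtered-air libraries, 4 of each title, differ from the odor libraries in the agent alone as far as the labels say. Dissociated mucosa cells were sorted for fluorescence, and 50 to 100 ng of total RNA was labelled for Clariom S arrays. The labels do not say whether a pool was extracted more than once, so the spread between pools holds both animal and technical variation.

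The title and the cell type field of each library name opposite fluorescence gates. Libraries are therefore called titled GFP- and titled GFP+, and a log2 ratio is always the titled GFP- value minus the titled GFP+ value of the same pool, with its SD over the 4 pools. Values are deposited log2 values of 1 probe set per gene. Probe sets differ in affinity, so levels are compared between libraries and not between genes. As a guide to background, the 95th percentile of vomeronasal receptor genes was taken in each odor library, and the highest of the 8, 4.90, is called the background guide. A gene counts as higher or lower where limma gave an adjusted p below 0.05 over all genes.

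Each mature olfactory sensory neuron transcribes 1 odorant receptor gene, and the receptor couples through a G protein to adenylyl cyclase and then to cyclic nucleotide-gated and chloride channels. S100a5, an EF-hand calcium-binding protein, and several adhesion molecules follow the activity that this cascade creates, and so does the sorting of axons in the olfactory bulb. Immediate early genes such as Fos are induced within minutes to hours of stimulation in many cell types, neurons and leukocytes included. The mucosa also holds supporting sustentacular cells, Bowman's glands, microvillar cells, basal stem cells, immature neurons and resident or circulating leukocytes, any of which can enter a sorted fraction.

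S100a5 was higher in the library titled GFP- of every bourgeonal pool, the opposite of what the titles would give and the same as the cell type field. It read 16.14, 16.24, 16.51 and 16.07 in the titled GFP- libraries of pools 1 to 4 and 15.07, 15.23, 15.67 and 14.62 in the titled GFP+ libraries. The highest titled GFP+ value lay below the lowest titled GFP- value, and the pool ratios ran from 0.85 to 1.46 (1.09 ± 0.26, SD, n = 4 pools). Its level in the titled GFP+ libraries was still far above the background guide, so both fractions held S100a5 RNA. Pcdh10, a protocadherin of the activity-dependent set, separated the fractions more, at 9.02, 9.55, 10.11 and 9.65 against 7.63, 7.95, 8.39 and 7.73. The voltage-gated potassium channel subunit Kcng1 read 10.01, 10.19, 11.67 and 8.84 in titled GFP- libraries and 8.63, 8.61, 9.80 and 6.91 in titled GFP+ libraries. Its fractions overlapped across pools, because pool 3 was high and pool 4 low on both sides, yet each pool had the same direction. The ratio was 1.66 ± 0.22 (SD, n = 4 pools) for Pcdh10 and 1.69 ± 0.25 for Kcng1. For each of S100a5, Pcdh10 and Kcng1 an exact two-sided sign-flip test over the 4 pools gave p = 0.125, the smallest that 16 flips allow, while limma gave adjusted p = 0.000282, 1.15e-05 and 3.13e-05.

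Both fractions carried the defining RNAs of mature olfactory sensory neurons. Omp, the olfactory marker protein, read 18.90, 18.97, 18.93 and 18.82 in titled GFP- libraries and 18.63, 18.91, 18.92 and 18.75 in titled GFP+ libraries, with overlapping ranges (limma, adjusted p = 0.552). Gnal, the olfactory G protein alpha subunit, differed by 0.02 and the channel subunit Cnga2 by 0.18, neither past the threshold. Among 26 genes typical of mature neurons, 2 passed on the higher side (7.69%) and 0 on the lower, against 7.82% and 10.2% of all genes. The median log2 ratio of the 26 was 0.17, against 0.105 over all genes. Without pool 1 or pool 3 the higher count was 1, and with centred libraries 24 of the 26 were higher, Omp included. In RNA from sorted fractions, fewer cells of a type and less RNA per cell cannot be told apart.

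Libraries of the same title resembled each other more than libraries of a pool did. Across genes, Pearson correlations were 0.990 to 0.993 among titled GFP- libraries, 0.990 to 0.994 among titled GFP+ libraries and 0.955 to 0.966 between titles, and 73.5% of the variance lay along the leading principal component. The median level of all genes was 5.96 to 6.00 in titled GFP- libraries and 6.30 to 6.36 in titled GFP+ libraries. The guide ran the other way, at 4.69 to 4.90 and 4.29 to 4.57, and the brightest probe set read 19.53 to 19.56 and 19.44 to 19.59. Centring each library on its own median takes the middle log2 ratio over the 19505 genes from 0.105 to 0.455, so families with small ratios depend on the scaling. Pool 4 stood apart in the Y-linked gene Uty, which read 3.71 and 3.36 in its fractions and 8.06 to 10.99 in the other 3 pools. The labels do not give the sexes of a pool.

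The fractions differed in 3521 of 19505 genes (18.1%), of which 1526 (7.82%) were higher and 1995 (10.2%) lower in titled GFP- libraries. Of the called genes 43.3% were thus on the higher side, a split that depends on the scaling: with centred libraries 10624 genes were higher and 1550 lower (87.3% on the higher side). Without pool 2 the higher count fell to 935 and without pool 3 to 941. The direction was the same in all 4 pools for 3464 of the 3521. Without regard to the fit, the fractions did not overlap over the 8 libraries for 1789 genes (9.17%) on the higher side and 1969 (10.1%) on the lower side. Differences on the lower side were larger: 1350 genes were lower by more than 2-fold and 458 higher. Past 16-fold, 243 were lower and 19 higher, and all of those 19 were odorant receptors. The 5th and 95th percentiles of the log2 ratio over all genes were -1.43 and 0.66. Genes near background carry little of this: 7365 had both fraction means below the guide, and 547 of the 3521 were among them. For 1018 of the 1995 lower genes the titled GFP- mean itself lay below the guide, so their ratios understate the difference in RNA by an unknown amount.

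**Figure D1:**
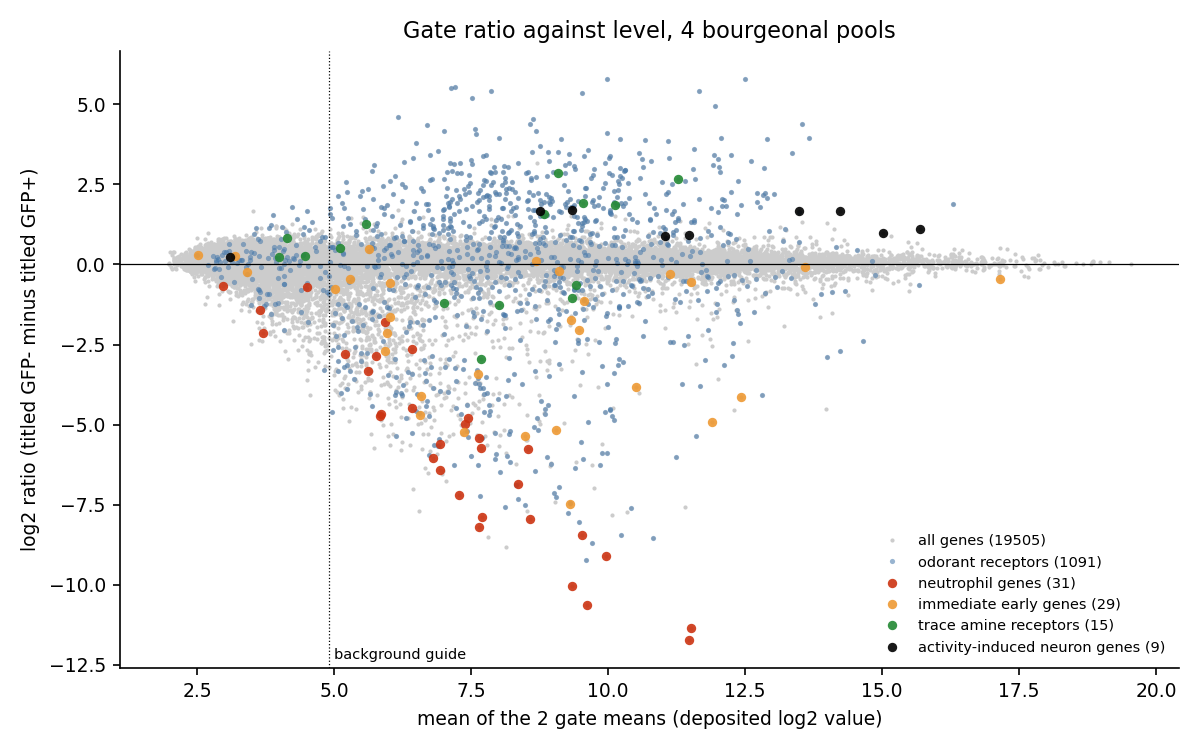
Ratio on the log2 scale, titled GFP- minus titled GFP+ (vertical axis, mean of 4 bourgeonal pools) against the mean log2 level of the 8 odor libraries (horizontal axis), 1 point per gene for 19505 genes, with 5 classes of genes in colour and a dotted line at the background guide. The 19 genes past 16-fold on the higher side are odorant receptors, while 157 of the 243 past 16-fold on the lower side are not.

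Outside the receptor families few genes were much higher in titled GFP- libraries. Of the 458 genes higher past 2-fold, 385 were odorant receptors and 73 were not, and those 73 held 6 trace amine receptors and 3 vomeronasal receptors. Fxyd2, a regulator of the sodium pump, read 10.72, 9.97, 9.46 and 10.99 against 6.46, 7.12, 7.54 and 7.32 (3.18 ± 1.01, SD, n = 4 pools). Among genes that the naming rule admits, it had the largest difference on the higher side. That rule leaves out odorant and vomeronasal receptors and Gm, Rik and LOC names. The spread came from both sides, with pool 1 widest and pool 3 narrowest. Others past 2-fold were Galnt15, an enzyme that starts O-linked glycans (1.71 ± 0.30), Fam174b (1.66 ± 0.20), the transcription factor Rfx4 (1.53 ± 0.33), the dense-core vesicle protein Ptprn (1.50 ± 0.18) and the vesicle protein Caly (1.50 ± 0.51). None of these overlapped between fractions over the 8 libraries. Adamdec1, a secreted metalloprotease relative, was the steadiest of the genes higher past 2-fold, at 8.71, 8.92, 8.99 and 8.44 against 7.27, 7.54, 7.50 and 7.00 (1.44 ± 0.04).

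Of the 9 genes listed as activity-induced in these neurons, 8 were higher and 0 lower, against 7.82% and 10.2% of all genes. The median log2 ratio was 1.09, with pool medians of 1.04 to 1.46. The list was drawn with earlier results of these data known, so its direction is a description. Pcp4l1, a small relative of the calmodulin regulator PEP-19, read 15.01, 14.81, 15.29 and 15.16 against 13.15, 13.58, 13.94 and 12.98, with no overlap (1.66 ± 0.45, SD, n = 4 pools). Lrrc3b, a leucine-rich repeat membrane protein, read 14.10, 14.59, 15.51 and 13.11 against 12.73, 13.18, 13.81 and 10.92 (1.66 ± 0.38). Kirrel2, an adhesion molecule through which axons of like activity group together, read 15.11, 15.25, 16.76 and 14.96 against 14.17, 14.50, 15.75 and 13.67 (1.00 ± 0.22). Lrrc3b, Kirrel2 and Kcng1 shared a pool pattern: pool 3 had the highest and pool 4 the lowest value in both fractions, so the fractions overlapped across pools while every pool had the higher value on the titled GFP- side. Pool 4 is also the pool with Uty below the guide, and the part of that difference between pools in this pattern was not tested. The ephrin receptor Epha5 (0.93 ± 0.14) and the protocadherin Pcdh17 (0.90 ± 0.20) were higher by similar amounts. Nptx1, a secreted pentraxin, lay below the guide on both sides and was not called. Without the pool as a block 5 of the 9 were called, and Kirrel2 (limma, adjusted p = 0.182), Kcng1 (0.0771) and Pcdh17 (0.0744) were not.

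The 4 genes listed as low in active neurons gave 1 call, on the lower side, where 10.2% of all genes were called. Kirrel3, an adhesion molecule known to be reduced in active neurons, read 13.48, 12.92, 12.43 and 12.71 against 13.47, 13.21, 12.81 and 13.13, lower in 3 of 4 pools with a ratio of -0.27 ± 0.20 (limma, adjusted p = 0.219). The ephrins Efna5 (-0.13 ± 0.31) and Efna3 (-0.03 ± 0.16) were near 0, with overlapping fractions, and with centred libraries Efna3 was on the higher side (0.32). Calb2, the calcium-binding protein calretinin, was the gene that passed, at 12.06, 11.69, 11.33 and 11.83 against 16.18, 16.31, 16.30 and 16.11 (-4.50 ± 0.38). Calretinin is also abundant in immature and other neuron types, and the immature neuron list was lower beside it, as given further down. Its part in the Calb2 difference was not tested.

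**Figure D2:**
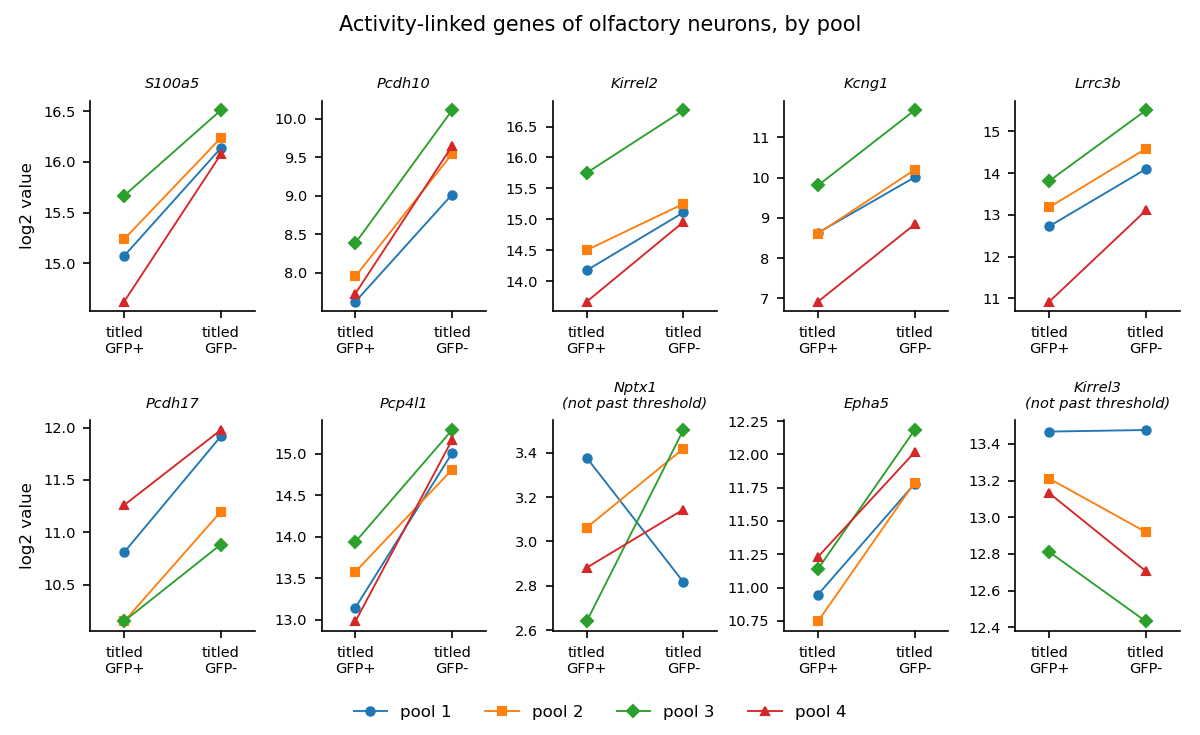
Deposited log2 levels (vertical axes, with a range of their own in each panel) of activity-linked genes in pools 1 to 4, with a line joining the titled GFP- and the titled GFP+ library of a pool. S100a5 ran from 14.62 to 16.51, and each pool had its higher value in the titled GFP- library, while Nptx1 and Kirrel3 did not pass the threshold.

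The promoters of the leading genes are shown because S100a5 and Pcdh10 moved together while the Fos family, described further down, moved the other way. Each is the 250 bases before the listed start in RefSeq (GRCm38.p6), 5′ to 3′ along the gene's strand, with TGACG or its reverse complement CGTCA in capitals. TGACG is the core of the cyclic AMP response element TGACGTCA and lies within it. For S100a5 the window is chr3:90608272-90608521 on the plus strand, for Pcdh10 chr3:45378148-45378397 on the plus strand and for Fos chr12:85473640-85473889 on the plus strand.
S100a5: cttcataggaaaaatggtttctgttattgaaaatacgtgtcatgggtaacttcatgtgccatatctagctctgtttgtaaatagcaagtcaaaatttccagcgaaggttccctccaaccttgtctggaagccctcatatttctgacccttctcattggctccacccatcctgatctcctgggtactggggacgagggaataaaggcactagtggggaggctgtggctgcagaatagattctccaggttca
Pcdh10: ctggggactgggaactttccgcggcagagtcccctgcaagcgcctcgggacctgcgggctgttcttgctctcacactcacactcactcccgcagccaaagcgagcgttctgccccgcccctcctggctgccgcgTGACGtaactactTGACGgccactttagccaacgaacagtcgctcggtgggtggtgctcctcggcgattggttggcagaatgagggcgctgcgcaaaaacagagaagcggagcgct
Fos: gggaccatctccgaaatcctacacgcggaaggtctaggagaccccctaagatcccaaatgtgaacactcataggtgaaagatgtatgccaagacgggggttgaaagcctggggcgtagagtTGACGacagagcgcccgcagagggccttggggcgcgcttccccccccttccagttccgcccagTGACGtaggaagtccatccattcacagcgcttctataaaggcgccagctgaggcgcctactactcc

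In the S100a5 window these letters were not found on either strand. Pcdh10 held them at 116 and 103 bases before the start, and Fos at 129 and 66 bases. In windows not printed, Nr4a1 held them at 4 places, and Egr2, a gene with 5 listed starts, had 0 matches in the window read. Among 7 activity-induced genes with a listed promoter, 1 held TGACG, and among 24 immediate early genes 14 did (58.3%), against 3302 of 15688 promoters of that length. Of 20 mature neuron genes 6 held it (30%). The full TGACGTCA was in 2 of the 24 and in 2.07% of all promoters. The AP-1 site TGANTCA (6.37% of all promoters) was found in 0 of the 7 and 0 of the 24. A match describes letters in this window and not occupancy, and a link between matches and the direction of the ratio was not tested.

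Genes of excitability and release are given against 7.82% higher and 10.2% lower over all genes. Of 45 ion channel genes 12 were higher and 2 lower, with a median of 0.23, and 20 lay below the guide on both sides. Beside Kcng1, the delayed rectifier Kcna1 was higher, at 5.56, 5.79, 6.68 and 6.29 against 4.81, 4.88, 5.78 and 4.85 (1.00 ± 0.30). Kcna2 (0.34 ± 0.12) and Kcnc4 (0.24 ± 0.12) were positive in every pool without passing, and the background potassium channel Kcnk1 was lower (-1.91 ± 0.45). Of 23 presynaptic genes 6 were higher and 0 lower. The vesicular glutamate transporter Slc17a6 (0.24 ± 0.13), the calcium sensor Syt1 (0.27 ± 0.15) and the fusion protein Snap25 (0.23 ± 0.11) did not pass. Among 26 axon sorting and guidance genes 6 were higher and 0 lower, led by the protocadherin Pcdh8 at 12.17, 11.71, 12.08 and 12.06 against 10.87, 10.59, 10.54 and 10.55 (1.37 ± 0.20). Nrp2, a semaphorin receptor (0.17 ± 0.30), and Sema3a, a repellent ligand for axons (-0.55 ± 0.11), did not pass. The clustered protocadherins, which give neurons their surface identity, had 9 of 20 higher and 0 lower with a median of 0.53. Pcdhb14 read 9.09, 9.48, 9.24 and 8.92 against 8.57, 8.72, 8.62 and 8.52 (0.58 ± 0.15), and Pcdhb1, at 0.32 ± 0.06, did not pass. Counts in these lists rested on all 4 pools: the channel count on the higher side was 7 without pool 1 or pool 3, the axon count was 3 without pool 1 or pool 2, and the clustered protocadherin count was 4, 5 and 4 without pools 1, 2 and 3. With centred libraries 28 channel, 19 presynaptic and 19 axon genes and all 20 clustered protocadherins were higher.

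Of 12 genes of the transduction cascade 2 were higher and 0 lower, against 7.82% and 10.2% of all genes. The higher count was 1 without pool 1 or pool 3, where Ano2 did not pass, 4 with an intensity trend in the prior or with dim genes left out, and 11 with centred libraries. The calcium-activated chloride channel Ano2 passed at 17.58, 17.41, 17.65 and 17.50 against 16.97, 17.04, 17.03 and 17.12 (0.49 ± 0.14), and the adenylyl cyclase Adcy3, at 0.33 ± 0.15, did not. Among 15 genes of adaptation and termination 3 were higher and 4 lower, with 1 higher without pool 1 or pool 3. Pde1c, the calmodulin-dependent phosphodiesterase of the cilia, was higher at 15.64, 15.78, 15.95 and 15.92 against 14.85, 15.33, 15.19 and 15.09 (0.71 ± 0.18). Rgs2, a regulator of G protein signalling, was lower at -4.88 ± 0.37 and lay below the guide in titled GFP- libraries. Of 27 calcium-binding protein genes 4 were higher and 5 lower, and the 4 relatives of S100a5 named here had the opposite sign to it. S100a11 read 4.93, 5.73, 4.87 and 5.78 against 12.63, 12.85, 13.04 and 12.42 (-7.41 ± 0.67), and S100a4 (-0.70 ± 0.45), S100a6 (-0.51 ± 0.32) and S100a10 (-2.32 ± 0.41) were lower too. S100a6 lay below the guide in both fractions and S100a10 in titled GFP- libraries. The calls of S100a4 and S100a6 were lost with centred libraries and without pool 3, and the higher count of the list was 2 without pool 2, 3 or 4.

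Trace amine receptors, the small second family of olfactory receptors, split between the fractions. Of 15 genes 8 were higher and 4 lower, against backgrounds of 7.82% and 10.2%. Taar4 read 11.23, 10.89, 9.57 and 10.34 against 8.32, 8.27, 6.80 and 7.21 (2.86 ± 0.22), and Taar9 read 13.74, 12.41, 12.03 and 12.26 against 11.43, 10.05, 8.88 and 9.43 (2.66 ± 0.40). For Taar4 and Taar9 pool 1 was highest in both fractions, yet no titled GFP+ library reached a titled GFP- one. Taar3 (1.92 ± 0.91), Taar7b (1.85 ± 0.79) and Taar7e (1.58 ± 0.19) were also higher. Taar2 went the other way, at 6.58, 5.49, 6.69 and 6.08 against 9.71, 9.28, 9.12 and 8.50 (-2.94 ± 0.65). Taar6 had a negative ratio in 3 of 4 pools and did not pass (-0.63 ± 0.93). Without pool 2 the count on the lower side was 2. Probes of the closely related Taar7 genes may bind each other's RNA, which was not tested.

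Odorant receptors were divided widely between the fractions. Of 1091 receptors 427 were higher (39.1%), 290 lower (26.6%) and 374 were not called, against 7.82% higher and 10.2% lower over all genes. The sign was the same in all 4 pools for 803, positive for 477 and negative for 326. A same-sign count over all genes is not given here. The SD of the log2 ratio over receptors was 2.40, against 0.770 over all other genes. The middle of the distribution lay near 0 (median 0.33), with 10th and 90th percentiles of -3.45 and 2.64. The lower tail reached further than the higher one, from -9.23 to 5.80. Receptor values also varied more between pools: the median SD of the pool ratios was 0.579, against 0.313 over all genes.

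Olfr309 was the receptor most in favour of the titled GFP- side, at 15.61, 15.05, 15.27 and 15.65 against 9.86, 8.79, 9.26 and 10.49 (5.80 ± 0.47, SD, n = 4 pools). Olfr1099 read 12.75, 12.93, 12.93 and 12.83 against 7.61, 6.90, 7.49 and 6.33 (5.77 ± 0.61). Olfr372 (5.53 ± 0.34) and Olfr481 (5.50 ± 0.09) had titled GFP+ means below the guide, so their ratios are limited from below by background. At the other end Olfr1507 read 5.48, 4.55, 4.99 and 4.86 against 14.20, 14.01, 14.33 and 14.29 (-9.23 ± 0.35). Olfr1213 (-8.69 ± 0.63) and Olfr393 (-8.53 ± 0.45) were close behind. Olfr1507 thus lay near the guide in titled GFP- libraries, while Olfr309 was above it in both fractions. Steadier intermediate ratios also occurred, such as Olfr730 at 13.41, 13.63, 13.27 and 13.05 against 11.52, 11.85, 11.46 and 11.14 (1.85 ± 0.06). Olfr16, a receptor known for lily of the valley odorants, read 11.44, 12.06, 11.86 and 11.55 against 10.11, 8.43, 7.98 and 8.33 (3.01 ± 1.16). Among its titled GFP+ libraries pool 1 stood above the other 3, and no titled GFP+ library reached a titled GFP- one.

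Counts by class and chromosome are set against 7.82% higher and 10.2% lower over all genes. By class, 48 of 123 class I receptors were higher (39.0%) and 21 lower (17.1%), with a median of 0.59. Of 948 class II receptors 375 were higher (39.6%) and 262 lower (27.6%), with a median of 0.31. By chromosome the balance varied. On chromosome 14, 23 of 39 receptors were higher and 8 lower (median 1.48), and on chromosome 16, 22 of 36 were higher and 7 lower (median 1.31). Chromosome 10 had 13 of 65 higher and 28 lower (median -0.70), and chromosome 11 had 21 of 80 higher and 29 lower (median -0.34). Receptors of a cluster share sequence, and binding of probes to near-identical receptors was not tested, so these counts are not counts of independent genes.

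**Figure D3:**
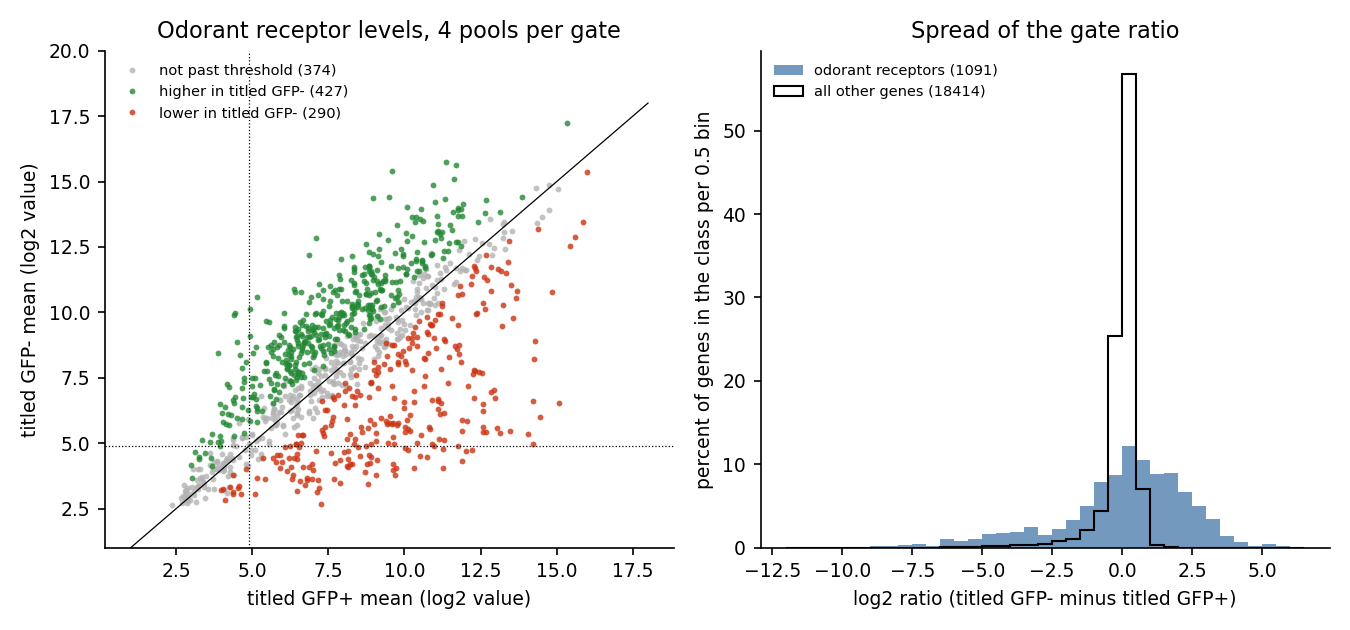
The left panel plots the titled GFP- mean against the titled GFP+ mean of each odorant receptor (log2 values, 4 pools per fraction, dotted lines at the background guide), with colour for the call. The right panel gives the percent of receptors and of all other genes in bins of the log2 ratio, and the receptors spread further, with an SD of 2.40 against 0.770.

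Neutrophil genes had the lowest median of all the lists. Of 31 members 30 were lower and 0 higher (median -5.59), against 10.2% and 7.82% of all genes. The titled GFP- mean of 20 members lay below the guide. Lcn2, an iron-sequestering protein of granules, read 5.48, 5.20, 5.41 and 6.40 against 17.35, 17.19, 17.48 and 17.34 (-11.71 ± 0.52). Ngp, the neutrophilic granule protein, read 5.82, 5.04, 6.35 and 6.17 against 17.11, 17.21, 17.23 and 17.24 (-11.35 ± 0.57). The alarmin subunits S100a8 (-10.02 ± 1.05) and S100a9 (-8.43 ± 0.90), the gelatinase Mmp9 (-8.21 ± 0.71) and the granule antimicrobial Camp (-6.43 ± 0.22) followed. Summed over the list, the level was 9.38 to 9.88 in titled GFP- libraries and 18.60 to 18.95 in titled GFP+ libraries.

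Other leukocyte genes lay on the same side, with counts set against 10.2% lower over all genes. Of 28 macrophage and monocyte genes 22 were lower (median -2.92), with the receptor Csf1r at 4.34, 4.54, 4.16 and 5.06 against 6.86, 7.69, 8.38 and 8.09 (-3.23 ± 0.72). The complement subunit C1qa differed less (-0.78 ± 0.38) and lost its call without pool 2, and the monocyte surface protein Ly6c2 more (-8.80 ± 0.51). Of 19 antigen presentation genes 12 were lower, H2-Ab1 by -4.08 ± 1.05 and H2-Eb1 by -3.10 ± 0.40. Of 21 lymphocyte genes 11 were lower, among them the B cell receptor component Cd79b (-2.73 ± 0.60), and 11 lay below the guide in both fractions. Of 5 erythroid genes 2 were lower, the anion exchanger Slc4a1 (-2.11 ± 0.30) and the haem enzyme Alas2 (-1.97 ± 0.54).

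Epithelial and basal lineages were lower in part, while all genes stood at 7.82% higher and 10.2% lower. Of 21 tuft-like microvillar cell genes 16 were lower (median -2.29). The cation channel Trpm5 read 4.73, 5.42, 4.74 and 4.96 against 7.67, 9.05, 9.11 and 9.76 (-3.93 ± 0.82), and the lineage factor Pou2f3 was lower too (-2.80 ± 0.78). Alox5, the 5-lipoxygenase that leukocytes also express, had the largest difference of the tuft list (-5.73 ± 0.74). Of 18 ionocyte-like genes 12 were lower, with Foxi1, their lineage factor, at 5.54, 5.29, 5.92 and 5.30 against 10.59, 10.41, 10.07 and 11.69 (-5.18 ± 0.92) and the chloride channel Cftr at -3.90 ± 0.76. Sustentacular genes were lower in 14 of 23 (median -0.94). Cyp2g1, an odorant-metabolising cytochrome, read 12.74, 12.72, 12.57 and 14.19 against 14.62, 14.76, 14.33 and 15.08 (-1.64 ± 0.51), with pool 4 highest on both sides, and Cyp2a5 (-1.93 ± 0.07) had nearly the same ratio in every pool. Sec14l3, of the same list, did not pass (-0.14 ± 0.21). Of 17 Bowman's gland genes 7 were lower and 1 higher, with a median of -0.02 and 8 positive ratios. The largest difference, of Ltf (-7.93 ± 0.41), was in a gene that is also a neutrophil granule gene. The lower count was 4 without pool 3 or pool 4, and the 1 higher gene lay below the guide in both fractions. Of 8 horizontal basal cell genes 3 were lower, or 1 without pool 2 or pool 4, with a median of -0.08 and 4 positive ratios. In both fractions 6 of the 8 lay below the guide. The keratins Krt5 and Krt14 were among those 6 and were not called.

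Neurons before maturity belonged to the same side, again beside 10.2% lower over all genes. Of 22 immature neuron genes 15 were lower (median -0.84). Gng8, a G protein subunit of immature receptor neurons, read 5.66, 5.33, 5.72 and 5.78 against 10.99, 10.05, 10.14 and 10.27 (-4.74 ± 0.41), and Gap43, of growing axons, read 6.82, 6.22, 6.80 and 6.91 against 9.40, 8.77, 8.87 and 9.27 (-2.39 ± 0.23). Stmn2 was lower by less (-0.55 ± 0.10) and not with centred libraries, while Stmn3 (0.19 ± 0.17) and Ncam1 (0.14 ± 0.15), which mature neurons also express, did not pass. Of 11 progenitor genes 8 were lower, with the neurogenic factor Insm1 at -1.46 ± 0.50 and the chemokine receptor Cxcr4, shared with leukocytes, at -4.86 ± 0.20. Of 29 cell cycle genes 22 were lower, and the proliferation antigen Mki67 read 3.94, 4.57, 4.07 and 4.56 against 8.88, 10.30, 10.17 and 9.85 (-5.52 ± 0.50).

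**Figure D4:**
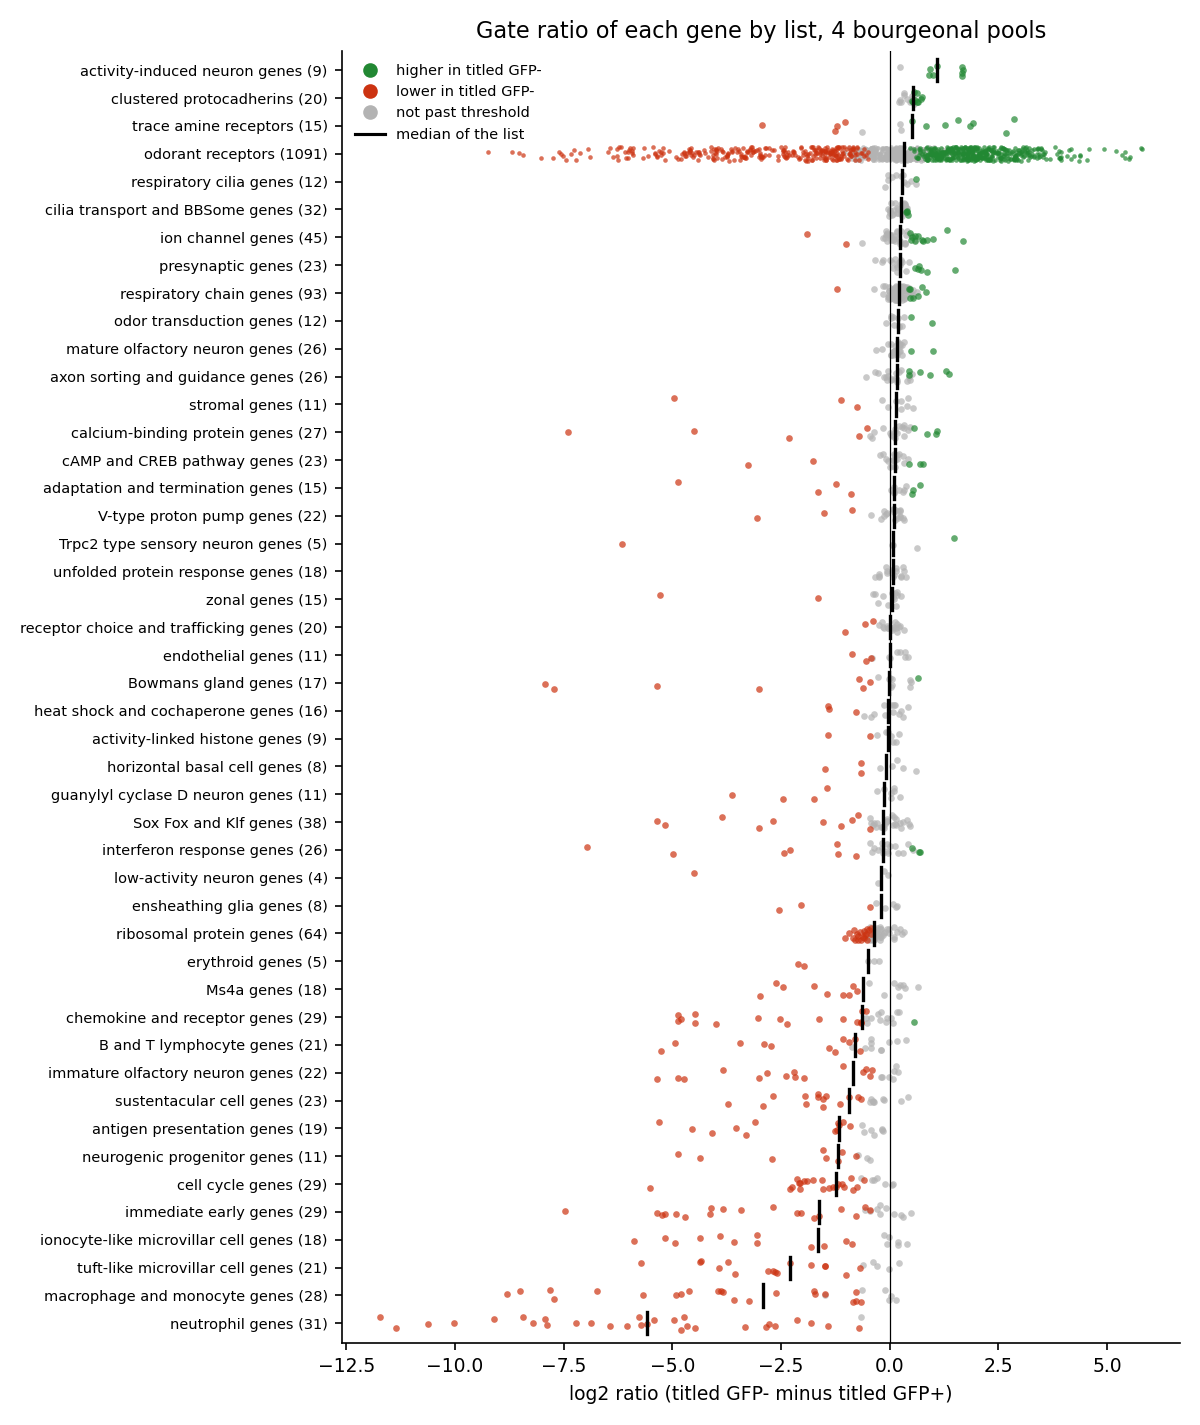
Log2 ratio of each gene (horizontal axis, titled GFP- minus titled GFP+, mean of 4 bourgeonal pools) in each gene list (vertical axis, number of measured genes in brackets), with colour for the call and a black bar at the median of the list. The neutrophil list has its median at -5.59 and the activity-induced list at 1.09.

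Most immediate early genes were lower in titled GFP- libraries, the side with more S100a5. Of 29 members 19 were lower and 0 higher, against 10.2% and 7.82% of all genes. The median was -1.63, with pool medians of -1.83 to -1.10. Fos read 10.30, 10.36, 10.47 and 10.29 in titled GFP- libraries and 14.03, 14.66, 14.98 and 14.30 in titled GFP+ libraries, with no overlap. Fosb read 8.83, 8.86, 8.46 and 8.22 against 12.39, 12.30, 12.88 and 12.08 (-3.83 ± 0.44, SD, n = 4 pools). Egr2 read 5.35, 5.95, 4.86 and 6.09 against 12.46, 12.96, 13.50 and 13.21 (-7.47 ± 0.78), the largest difference of the list. Junb (-3.42 ± 0.46), Fosl2 (-2.14 ± 0.42) and Egr1 (-4.92 ± 0.58) were lower as well. Jun differed by -0.56 ± 0.26 and passed, though not with centred libraries or without pool 2, 3 or 4, Fosl1 by -0.57 ± 0.26 without passing, and Jund, read at 13.10 to 13.91 in titled GFP- libraries, had overlapping fractions (-0.08 ± 0.12). Egr1 and Jund were named after their values were seen.

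These genes are not specific to neurons, and markers of leukocytes, microvillar cells and immature neurons were lower on the same side of the sort. Beside the immediate early list, whose summed level was 17.07 to 17.35 in titled GFP- and 17.91 to 18.08 in titled GFP+ libraries, the neutrophil list was lower in 30 of 31 genes and the macrophage and monocyte list in 22 of 28, with summed levels of 15.64 to 15.90 and 16.36 to 16.82. In titled GFP- libraries 20 of the 31 neutrophil genes, S100a8, Mmp9 and Camp among them, had means below the guide. The others, Lcn2 and Ngp included, did not. The part of these cells in the immediate early differences was not tested. Genes of the cyclic AMP and CREB pathway, which acts upstream of several immediate early genes, were mostly not called: 3 of 23 were higher and 2 lower, with the kinase Camk4 at 0.77 ± 0.29 and the phosphodiesterase Pde4b at -3.27 ± 0.46. Of 16 heat shock and cochaperone genes, which respond to cell stress, 3 were lower (18.8%) and 0 higher, against 10.2% and 7.82% of all genes. Among the lower ones were Hspa1a (-1.38 ± 0.52) and Hspa1b (-1.43 ± 0.56), near-identical genes whose probes may share RNA. Neither passed in the fit of all 16 libraries without the pool as a block (limma, adjusted p = 0.400 and 0.364). Both kept their call with the 8 odor libraries alone and no block, and neither overlapped between the bourgeonal fractions.

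**Figure D5:**
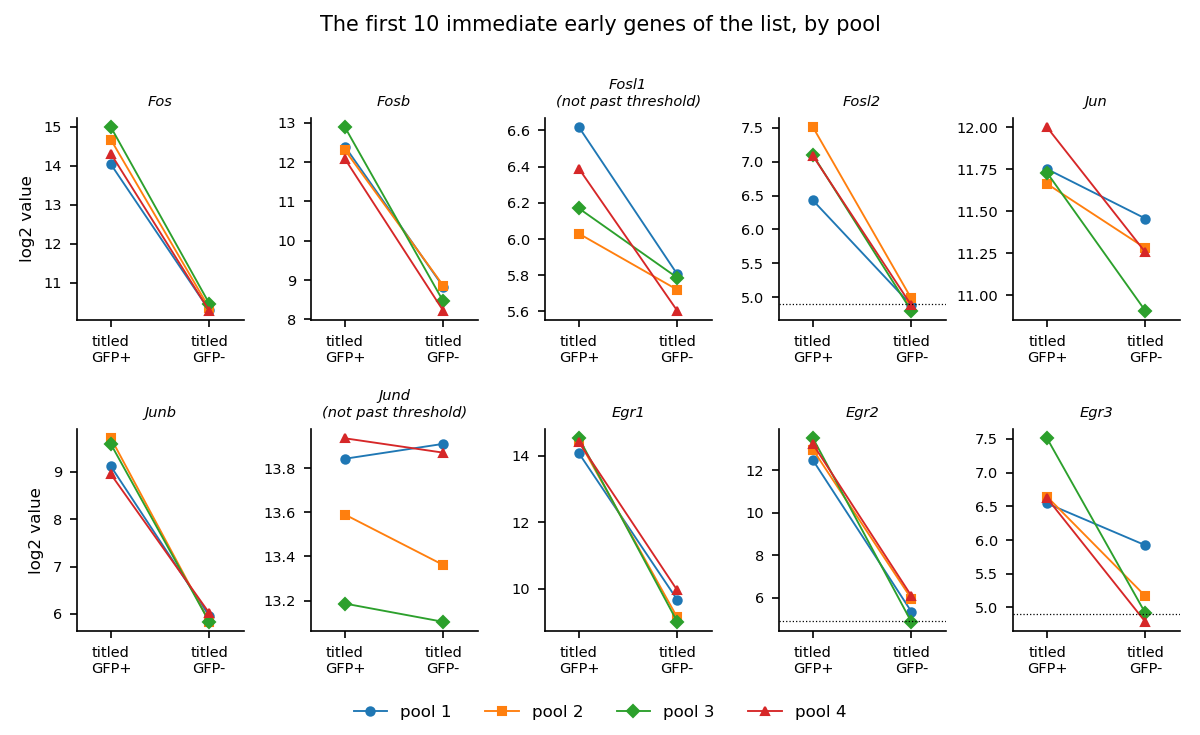
Deposited log2 levels (vertical axes, with a range of their own in each panel) of the first 10 immediate early genes of the list in pools 1 to 4, with a line joining the libraries of a pool and a dotted line at the background guide. For Fos the titled GFP+ libraries read 14.03 to 14.98 and the titled GFP- libraries 10.29 to 10.47, while the fractions overlapped for Jund.

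Counts in families with small ratios depended on the scaling and on single pools, and all genes stood at 7.82% higher and 10.2% lower. Respiratory chain genes had 7 of 93 higher and 1 lower (median 0.21), cilia transport genes 4 of 32 higher and 0 lower (0.25), and unfolded protein response genes 0 of 18 in either direction (0.07). Ribosomal protein genes had 20 of 64 lower and 0 higher (median -0.37), with Rplp0 at -1.03 ± 0.29. The higher count of respiratory chain genes was 0 to 3 without 1 of the pools, that of cilia transport genes 0 or 1, and the lower count of ribosomal protein genes was 7 without pool 2 or pool 3. With each library centred on its median, the calls became 77 higher and 1 lower for respiratory chain, 29 higher for cilia transport, 12 higher for unfolded protein response and 4 higher and 6 lower for ribosomal protein genes. Under that scaling 29 neutrophil genes were lower, 17 immediate early genes were lower and 1 higher, and 8 activity-induced genes were higher.

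In the filtered-air pools 1216 genes were higher and 1940 lower, and a filtered-air ratio of the same sign was found for 1455 of the 1526 genes higher with bourgeonal and for 1969 of the 1995 lower ones. The difference of the ratio between bourgeonal and air was tested in the same limma fit and passed for 0 of 19505 genes (0.0%). An unadjusted limma p below 0.05 was found for 1109 genes, 5.69% of all. The smallest adjusted p (limma) was 0.172, for Il1r2, a decoy receptor for interleukin 1, named after its values were seen. Il1r2 had a ratio of -3.32 ± 0.17 with bourgeonal and -1.95 ± 0.13 with air. With air the ratio was 0.95 ± 0.25 (SD, n = 4 pools) for S100a5, 1.08 ± 0.28 for Pcdh10 and 1.07 ± 0.39 for Kcng1, and their differences of 0.14, 0.57 and 0.62 between treatments did not pass. Of the receptors named here, Olfr1099 had a ratio of 3.44 ± 0.59 with air and Olfr16 one of -1.55 ± 1.52, whose mean thus had the opposite sign to that with bourgeonal. The differences, 2.34 and 4.57, did not pass over all genes (limma, adjusted p = 0.384 and 0.467). Olfr309 (5.08 ± 0.60), Olfr1507 (-9.05 ± 0.60) and Lcn2 (-11.49 ± 1.06) had air ratios of the same sign as with bourgeonal.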

How the data were processed

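RNA of sorted olfactory mucosa was measured in 16 libraries, 4 per group, and the 8 bourgeonal libraries are compared here. The deposited values are log2 expression values. Per the submitters' processing notes, the authors ran Affymetrix Expression Console; its version, settings and build were not given in the sources used here. From 28846 probe sets, 94 spike-in or background and 6546 further controls were left out, 2634 named no gene, and the brightest probe set of each gene was kept, which left 19505 genes. The number of arrays limits the precision.

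One limma 3.58.1 fit (R 4.3.3, lmFit and eBayes) of all 16 libraries, blocked by pool, gave the fraction ratio and its difference between treatments, two-sided, with Benjamini-Hochberg adjustment over all genes and a threshold of 0.05. Deviations from group means correlated at 0.135 to 0.287 between the fractions of a pool and at -0.197 to 0.070 between fractions of different pools, and both fractions of a pool come from the same 3 mice as far as the count of mice shows. The members and gene lists were chosen with earlier results of these data known. Named genes are the 15 largest differences on each side, leaving out odorant and vomeronasal receptors and Gm, Rik and LOC names. To these come the 8 largest on each side among odorant receptors and the 3 with the smallest SD on each side past 2-fold. All of these had to be called, with the same sign in all 4 pools and the higher fraction mean above the guide. The first 6 members and the largest called differences of each list, and the markers, were named too. Egr1, Jund, Nptx1 and Il1r2 fall outside this and were picked with their values in view. Alternatives left out the block, the air libraries, dim genes or 1 pool, or changed the scaling, the probe sets or the prior.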

Additional observations from a re-analysis of the deposited data

Results flagged for a closer look

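Egr2 had 1 pool far from the others: its log2 ratio was -8.64 in pool 3 and between -7.13 and -7.00 in the other 3 pools. Olfr1507 had a ratio of -8.72 in pool 1 and between -9.45 and -9.33 in the others, so the pool that stands apart is the one with the smaller difference. Crabp1 had a ratio of -4.44 in pool 2 and between -5.68 and -5.47 in the others. About 1 in 20 groups of 4 is expected to be singled out in this way by chance. The ratio of Olfr16 differed between bourgeonal and air by 4.57, with every bourgeonal pool above 0 and every air pool below 0, and it did not pass over all genes (limma, adjusted p = 0.467).

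Probe sets with no gene name were not part of the comparison. Of these 2634, 5 were higher and 81 lower by more than 2-fold in all 4 pools with a level above the background guide.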

How the results depend on the processing

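Of the 118 genes named, 91 were called, and 76 of them kept their call in every alternative that tested them. With each library centred on its median, 10624 genes were higher, 1024 of them past 2-fold, against 1526 and 458 as deposited. Quantile normalization gave 2321 higher genes. Leaving out 1 bourgeonal pool gave 935 to 1162 higher genes. Counts of lower genes stayed within 1.5 times of 1995 in the alternatives run, from 1550 with centred libraries to 2117 with an intensity trend in the prior. Efna3, not called, was called on the higher side with centred libraries (0.32). No replicate block gave 1223 higher and 1855 lower genes. The replicate number as a replicate block across treatments left the count of differences between bourgeonal and air at 0, as did each other alternative run for it. The causes were not tested. Signal near background compresses ratios, and 7365 genes lay below the guide in both fractions.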

Other observations

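Some genes of other compartments not described above also differed between the fractions of bourgeonal pools. Rgs5, a pericyte gene, read 6.83, 6.52, 6.36 and 7.17 in titled GFP- libraries and 11.78, 11.70, 11.58 and 11.64 in titled GFP+ libraries (-4.95 ± 0.34, SD, n = 4 pools), while the endothelial gene Pecam1 lay below the background guide on both sides and lost its call on the lower side without pool 2, 3 or 4. Of 11 stromal genes 3 were lower (27.3%), against 10.2% of all genes. The stromal list had a median of 0.16, with 6 positive ratios and 7 genes below the guide in both fractions. Of 11 endothelial genes (median 0.01) 9 lay below the guide in both fractions, the 3 lower ones included. Apoe, a lipid carrier of glia and macrophages, was lower by -2.55 ± 0.96, and the glial fatty acid carrier Fabp7 was not called (0.08 ± 0.81).

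Neurons outside the canonical pathway gave mixed values, while all genes stood at 7.82% higher and 10.2% lower. The guanylyl cyclase D neuron list had 4 of 11 members lower and 0 higher. Its median was -0.14, with 5 positive ratios and 5 members below the guide in both fractions, Gucy2d itself included. The largest difference of the list was that of the phosphodiesterase Pde2a, at 6.25, 5.84, 5.48 and 5.59 against 8.89, 9.39, 9.39 and 9.99 (-3.63 ± 0.74). Of 5 genes listed for Trpc2 type sensory neurons 1 was higher and 1 lower, with a median of 0.07 and 4 positive ratios. The lower one was Gnai2, a G protein subunit of vomeronasal neurons and of leukocytes (-6.15 ± 0.78). Crabp1, a retinoic acid binding protein, read 3.67, 4.43, 4.05 and 4.12 against 9.20, 8.87, 9.73 and 9.59 (-5.28 ± 0.57). Tekt1, a gene of motile cilia, was higher by 0.60 ± 0.16, and not without pool 2 or pool 3. It was the 1 of 12 respiratory cilia genes to pass (8.33%, against 7.82% of all genes higher). Of 29 chemokine and receptor genes 16 were lower and 1 higher, and of 26 interferon response genes 7 were lower and 3 higher, with 1 higher without pool 1 or pool 3. Against 10.2% lower over all genes, further counts on the lower side came from Ms4a genes (9 of 18, with 12 below the guide in both fractions), Sox, Fox and Klf genes (10 of 38), V-type proton pump genes (3 of 22), zonal genes (2 of 15), activity-linked histone genes (2 of 9, or 1 without pool 1, 3 or 4) and genes of receptor choice and trafficking (3 of 20). The V-type proton pump, zonal and receptor choice lists, at 13.6%, 13.3% and 15% lower, were near the share of all genes. Their medians were 0.11, 0.05 and 0.01, with 13, 8 and 10 positive ratios. Of 321 vomeronasal receptors 21 were higher, against 7.82% of all genes, and 0 lower, and 312 lay below the guide in both fractions, 20 of the 21 among them. The higher count was 13 without pool 2 and 187 with centred libraries. Plac8, expressed in several leukocyte types, had nearly the same ratio in each pool (-2.51 ± 0.03).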
